A study of Mus musculus with 10 samples.

Results

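The comparison described here sets the colons of mice fed aspirin together with curcumin against the colons of mice fed curcumin alone, both after the same carcinogen and colitis regimen. It takes in 4 of the 10 RNA-seq libraries of the series, 2 from the combination diet (ASA+CUR) and 2 from the curcumin diet (CUR), chosen by their column names. The other 6 libraries, 2 each from the aspirin diet (ASA), the unsupplemented regimen (Model) and untreated mice (Control), entered the estimate of the spread between libraries and are given where they place a value. All mice were C57BL/6. Every group but Control received azoxymethane (AOM) under the skin at 10 mg/kg at 6 weeks of age, and dextran sulfate sodium (DSS) in its drinking water (1.2%) over 7 days, starting 1 week later. Control mice received saline and no DSS. The ASA+CUR diet was AIN-93M, a purified rodent diet, with 0.01% aspirin and 1% curcumin, the CUR diet was AIN-93M with 2% curcumin, the ASA diet held 0.02% aspirin, and the Model and Control diets were AIN-93M alone. The ASA+CUR diet thus differs from the CUR diet in its aspirin and also in its lower curcumin content, and the effects of these differences cannot be told apart. Tissue from the AOM/DSS groups is labelled as tumour, while the extraction protocol describes colon kept after the proximal end and the palpable tumours had been taken away, so it is not settled which of these was sequenced. Whether replicates came from different animals is not stated, so the p-values reflect the spread of libraries alone, and that spread may be technical.

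In the ASA+CUR colons, genes of the interferon response and of MHC presentation, of goblet cells, of absorptive colonocytes and of drug metabolism were lower than in the CUR colons, and genes of fibroblasts and matrix were higher, against each CUR library in turn. No single gene passed the adjusted test across all genes, so these are descriptions of 4 libraries. The median log2 difference was -1.92 over 33 interferon response genes and 0.53 over 24 fibroblast and matrix genes, against 0 over all genes tested.

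AOM is a colon carcinogen and DSS injures the colon epithelium, and in sequence they give inflamed mucosa and tumours. Aspirin acetylates the cyclooxygenases encoded by Ptgs1 and Ptgs2 and so blocks prostaglandin synthesis, and curcumin is a polyphenol of turmeric studied for its action on inflammatory and antioxidant pathways. The cells of the colon answer interferons through a few shared factors. Type I interferons bind the receptor of Ifnar1 and Ifnar2, and the kinases Jak1 and Tyk2 then activate a complex that holds Stat2 and Irf9 and binds the interferon-stimulated response element (ISRE). Type II interferon, the product of Ifng from T and NK cells, acts through Ifngr1 and Ifngr2, and its signal reaches genes with the gamma-activated site (GAS). The targets include antiviral proteins, the guanylate-binding and immunity-related GTPases that attack pathogen vacuoles, and the machinery that presents peptides on MHC molecules.

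Promoters of 4 interferon response genes are shown because these genes are lower in both ASA+CUR libraries than in both CUR libraries and carry the ISRE letters. Each window runs from 250 bases before to 50 bases after the start of the gene in RefSeq (GRCm38.p6) and is printed 5′ to 3′ on the strand of the gene, with the letters that match GAAANNGAAA on either strand in capitals. Isg15 (a ubiquitin-like protein attached to other proteins in antiviral defence; chr4:156200769-156201068, minus strand) holds 3 overlapping matches, Ifit1 (a sensor of foreign RNA caps; chr19:34640639-34640938, plus strand) holds 2, and Rsad2 (viperin, which makes a chain-terminating nucleotide; chr12:26456403-26456702, minus strand) and Irgm2 (an immunity-related GTPase; chr11:58214727-58215026, plus strand) hold 1 each.
Isg15: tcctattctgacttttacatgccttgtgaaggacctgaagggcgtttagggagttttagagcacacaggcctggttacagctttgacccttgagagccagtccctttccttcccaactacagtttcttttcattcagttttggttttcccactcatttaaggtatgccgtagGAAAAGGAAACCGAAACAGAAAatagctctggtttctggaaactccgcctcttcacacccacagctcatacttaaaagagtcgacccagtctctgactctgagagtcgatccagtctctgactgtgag
Ifit1: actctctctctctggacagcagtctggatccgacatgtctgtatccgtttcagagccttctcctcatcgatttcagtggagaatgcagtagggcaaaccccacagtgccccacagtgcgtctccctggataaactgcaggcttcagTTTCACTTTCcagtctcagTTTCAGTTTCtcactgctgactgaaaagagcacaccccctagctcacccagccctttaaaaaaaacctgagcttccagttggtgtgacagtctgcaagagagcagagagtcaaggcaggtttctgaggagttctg
Rsad2: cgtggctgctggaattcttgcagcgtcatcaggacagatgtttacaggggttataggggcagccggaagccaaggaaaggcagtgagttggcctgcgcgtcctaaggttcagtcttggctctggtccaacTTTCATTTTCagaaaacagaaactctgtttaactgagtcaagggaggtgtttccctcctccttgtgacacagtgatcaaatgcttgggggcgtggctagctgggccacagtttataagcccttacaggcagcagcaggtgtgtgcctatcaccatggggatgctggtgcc
Irgm2: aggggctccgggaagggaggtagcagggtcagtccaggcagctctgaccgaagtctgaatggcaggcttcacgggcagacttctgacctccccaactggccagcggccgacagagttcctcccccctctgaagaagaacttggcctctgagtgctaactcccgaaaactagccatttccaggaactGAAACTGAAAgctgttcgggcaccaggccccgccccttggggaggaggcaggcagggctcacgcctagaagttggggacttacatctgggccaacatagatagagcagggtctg
RefSeq windows could be matched for 24 of the 33 tested interferon response genes, and 13 of these 24 genes (54.2%) held an ISRE match in a window, against 3.88% of the 11003 tested genes with a window and 3.44% of all 32851 windows of 300 bases. The GAS letters TTCNNNGAA, searched on both strands, were found in 8 of the 24 genes (33.3%), against 8.40% of the tested genes with a window and 8.30% of all windows. Both motifs contain the letters GAA, so their matches can overlap, and a window can hold both, as that of Irgm2 does. A match describes the letters in these windows and does not show that a factor binds there.

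The values are FPKM, that is, fragment numbers scaled to transcript length and library size, deposited per transcript and summed per gene. The deposited FPKM summed to 517417 and 515959 in the ASA+CUR libraries, against 719051 and 555275 in the CUR libraries. Wherever a pair of values is given, replicate 0 comes first. The number of reads behind each library is unknown. The CUR libraries differed from each other more than the replicates of any other group: 1350 of 14061 genes differed at least 2-fold on the log2(FPKM + 1) scale between them, against 389 between the ASA+CUR libraries and 150 to 888 within the other groups. The libraries also differed in some genes that mark position along the colon. Hoxd13, a homeobox gene of the distal gut, stood at 87.7 and 65.2 FPKM in ASA+CUR libraries, against 0.0323 and 71.6 FPKM in CUR libraries. Hoxb13, another distal homeobox gene, had 180.3 and 183 FPKM in ASA+CUR, against 19.5 and 296 FPKM in CUR. Wfdc2, a secreted protease inhibitor more abundant towards the distal colon, had 216 and 175 FPKM with ASA+CUR, against 6.19 and 243 FPKM with CUR. CUR replicate 0 was the low library in each case, while CUR replicate 1 lay close to or above both ASA+CUR libraries. Of the 14 tested genes of the distal list, 9 were higher and 5 lower in ASA+CUR. Their summed level overlapped, at 1159 and 941 FPKM in ASA+CUR, against 928 and 1372 FPKM in CUR. One member, Aqp8, was instead highest in CUR replicate 0, at 132 FPKM. The 14 proximal genes summed to 404 and 407 FPKM in ASA+CUR, against 1628 and 747 FPKM in CUR, and 8 of the 11 tested were lower. Keratins of stratified squamous epithelium, which lines the anal canal and not the colon, marked ASA+CUR replicate 0: Krt5 had 212 and 0.0662 FPKM in ASA+CUR, against 0.0739 and 0.0308 FPKM in CUR. The summed level of the 25 squamous genes was 1341 and 566 FPKM in ASA+CUR, against 686 and 236 FPKM in CUR. The summed level of the 20 smooth muscle genes was 1045 and 971 FPKM in ASA+CUR, against 888 and 1108 FPKM in CUR, and the groups overlapped. The colon epithelium markers Epcam, Vil1, Cdh1 and Krt20 were present in all 4 libraries, Epcam at 793 and 761 FPKM in ASA+CUR libraries, against 1352 and 817 FPKM in CUR libraries. List medians are therefore given against each CUR library as well as against both.

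**Figure D1:**
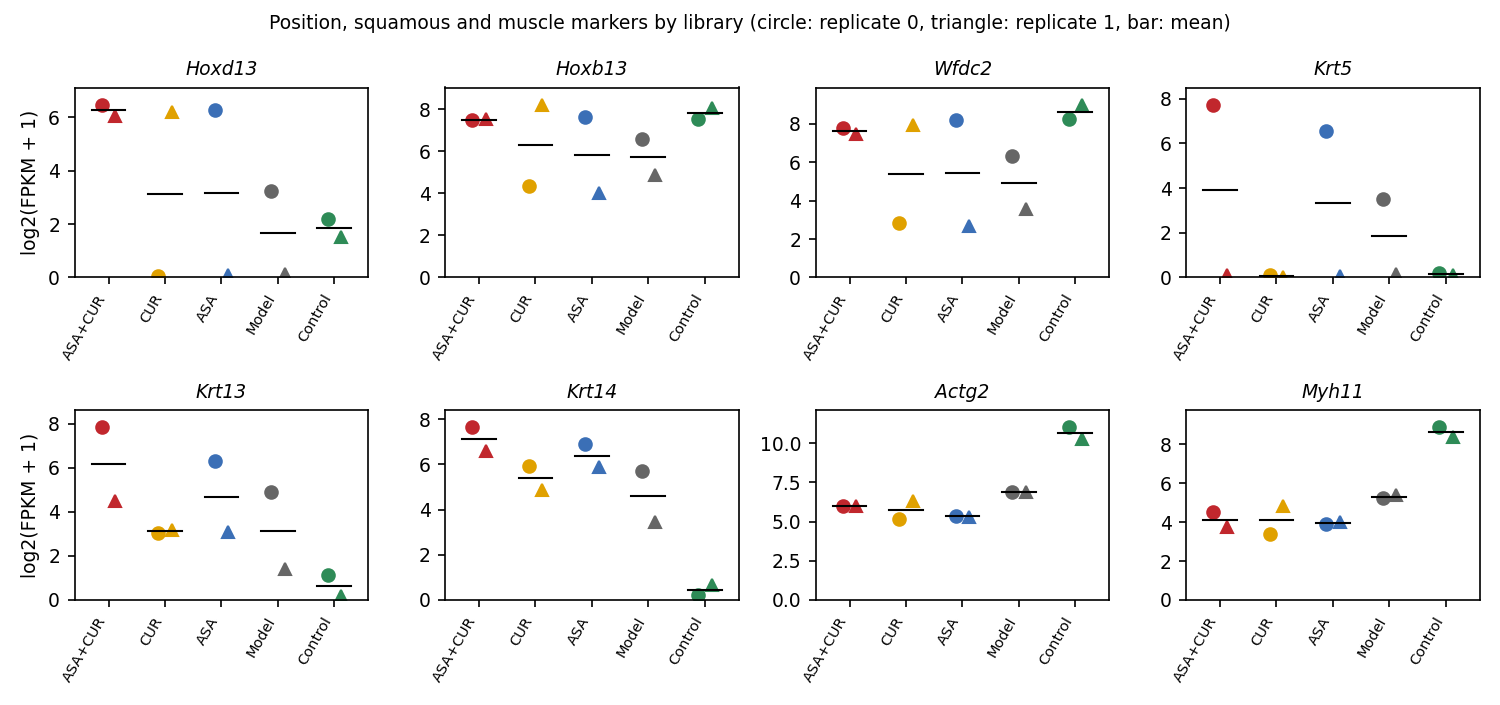
Levels of 8 marker genes, as log2(FPKM + 1), in each library of the 5 groups, with circles for replicate 0, triangles for replicate 1 and bars for the group mean. The distal genes Hoxd13, Hoxb13 and Wfdc2 are low in CUR replicate 0, and Krt5 is high in ASA+CUR replicate 0 but not in ASA+CUR replicate 1.

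None of 14061 genes differed between ASA+CUR and CUR colons at an adjusted p below 0.05 (0.0% of genes tested; limma on log2(FPKM + 1), two-sided, Benjamini-Hochberg adjusted over all genes tested). The smallest adjusted p was 0.0516, for the globin gene Hba-a2. At an unadjusted p below 0.05, limma listed 1168 genes lower (8.31%) and 776 genes higher (5.52%) in ASA+CUR. Both ASA+CUR libraries lay below both CUR libraries for 3400 genes (24.2%) and above both for 3421 genes (24.3%). The count depended on 1 library: without CUR replicate 1, so that the ASA+CUR libraries were set against CUR replicate 0 alone, 1090 genes were lower (7.77% of 14026 tested) and 866 higher (6.17%) at an adjusted p below 0.05, on the assumption that the lone library varies like the other groups. Without ASA+CUR replicate 1 the count was 1, the small nucleolar RNA Snora16a, and without either of the other libraries it was 0. Against CUR replicate 1 alone, both ASA+CUR libraries were lower for 38.5% of genes and higher for 38.5%. The genes below are therefore described by their values in each library, with 2 libraries a group (n = 2), the standard error (SE) from limma and an adjusted p that did not pass.

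Interferon response genes were the group with the lowest median of the 52 lists described. All 33 tested members had a negative log2 difference, with a median of -1.92 against 0 over all genes tested, and 32 of them were lower in both ASA+CUR libraries than in both CUR libraries, where 24.2% of all genes were. An unadjusted p below 0.05 was reached by 32 members, against 8.31% of all genes, and an adjusted p below 0.05 by none. The median was -2.20 against CUR replicate 0 alone and -1.60 against CUR replicate 1 alone, and all 33 members were lower in both ASA+CUR libraries than in CUR replicate 1, where 38.5% of all genes were. In the fit against CUR replicate 0 alone, 16 members passed and all of these were lower, against 7.77% of genes. The summed level of the 34 members in the table was 555 and 265 FPKM in ASA+CUR, against 2543 and 1213 FPKM in CUR.

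The receptor and kinase genes named here had smaller differences than the transcription factors named here. The interferon genes themselves were at or near 0: Ifnb1, Ifna1, Ifna2, Ifna4, Ifna5, Ifnl2 and Ifnl3 were listed at 0 in all 4 libraries. Ifng was listed at 0 in both ASA+CUR libraries, against 0.217 and 0.422 FPKM in CUR, too low to be tested. The 11 tested receptor, kinase and feedback genes, a list added after values had been seen, had a median log2 difference of -0.17, and 5 of them were lower without overlap, against 24.2% of all genes. The median was -0.36 against CUR replicate 0 alone and 0.02 against CUR replicate 1 alone, so its sign depended on the CUR library. Ifnar1, a chain of the type I receptor, had 16.01 and 15.2 FPKM in ASA+CUR, against 13.8 and 14.4 FPKM in CUR (log2 difference 0.14 ± 0.15 SE, limma adjusted p = 0.646). The kinase gene Jak1 had 38.9 and 38.6 FPKM with ASA+CUR, against 27.9 and 36.8 FPKM with CUR (log2 difference 0.27 ± 0.17 SE, limma adjusted p = 0.452). Ifngr1, the ligand-binding chain of the type II receptor, had 83.1 and 67.6 FPKM in ASA+CUR, against 134 and 101 FPKM in CUR (log2 difference -0.63 ± 0.21 SE, limma adjusted p = 0.328). Ifnar1 and Jak1 were thus slightly higher in both ASA+CUR libraries, while Ifngr1 was lower in both. Stat2, of the complex that binds the ISRE, had 8.96 and 8.24 FPKM in ASA+CUR libraries, against 29.9 and 15.7 FPKM in CUR libraries (log2 difference -1.25 ± 0.31 SE, limma adjusted p = 0.288). Irf9, the DNA-binding subunit of that complex, had 26.5 and 19.5 FPKM with ASA+CUR, against 50.4 and 36.1 FPKM with CUR (log2 difference -0.88 ± 0.25 SE). Irf7, which amplifies type I interferon production, stood at 43.1 and 20.8 FPKM in ASA+CUR libraries, against 407 and 93.7 FPKM in CUR libraries (log2 difference -2.66 ± 0.68 SE, limma adjusted p = 0.289), and Irf1, an early target of interferon-gamma, at 54.9 and 32.7 FPKM in ASA+CUR, against 119 and 86.9 FPKM in CUR (log2 difference -1.24 ± 0.33 SE). None of these 4 factors overlapped between the groups.

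The antiviral effectors named here were lower in both ASA+CUR libraries than in both CUR libraries. Isg15 had 19.8 and 11.5 FPKM in ASA+CUR libraries, against 309 and 56.9 FPKM in CUR libraries (log2 difference -3.06 ± 0.74 SE, limma adjusted p = 0.2799). Its levels elsewhere in the series were 27.5 and 72.6 FPKM in ASA, 42.5 and 41.1 FPKM in Model and 11.9 and 8.49 FPKM in Control, so that both CUR libraries exceeded both Model libraries and both ASA+CUR libraries lay below them. Ifit1, whose promoter is shown above, had 5.82 and 4.28 FPKM in ASA+CUR, against 63.9 and 26.2 FPKM in CUR (log2 difference -2.81 ± 0.65 SE). The related Ifit2 and Ifit3 had 12.1 and 3.76 FPKM and 5.23 and 4.62 FPKM in ASA+CUR, against 34.4 and 28.4 FPKM and 24.3 and 18.9 FPKM in CUR. Rsad2 was low throughout, at 1.101 and 1.18 FPKM in ASA+CUR libraries, against 6.39 and 7.06 FPKM in CUR libraries (log2 difference -1.85 ± 0.35 SE, limma adjusted p = 0.2799), and its replicates lay close together in both groups. Oasl2 and Oas1a, members of the family that senses double-stranded RNA, had 18.2 and 6.73 FPKM and 20.4 and 11.3 FPKM in ASA+CUR, against 115 and 35.8 FPKM and 96.4 and 30.96 FPKM in CUR. Bst2, which tethers budding virus to the cell surface, had 33.1 and 23.96 FPKM with ASA+CUR, against 281 and 74.3 FPKM with CUR (log2 difference -2.32 ± 0.67 SE). Usp18, the protease that removes Isg15 from proteins, had 8.67 and 11.01 FPKM in ASA+CUR, against 41.4 and 32.7 FPKM in CUR (log2 difference -1.81 ± 0.52 SE).

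The interferon-induced GTPases were lower in ASA+CUR with 1 exception. Irgm2, at chr11:58214977-58222783, had 14.5 and 11.99 FPKM in ASA+CUR libraries, against 30.4 and 37.3 FPKM in CUR libraries (log2 difference -1.29 ± 0.17 SE, limma adjusted p = 0.279), and the 2 libraries of each group were close. Igtp had 14.5 and 4.66 FPKM in ASA+CUR, against 44.7 and 50.02 FPKM in CUR (log2 difference -2.36 ± 0.51 SE). Irgm1 had 29.1 and 11.8 FPKM with ASA+CUR, against 68.5 and 56.2 FPKM with CUR (log2 difference -1.68 ± 0.38 SE). Iigp1 had 14.4 and 0.844 FPKM in ASA+CUR, against 23.4 and 41.1 FPKM in CUR (log2 difference -2.59 ± 0.93 SE). ASA+CUR replicate 1 was the lowest of the 4 libraries in each of these. Gbp3, a guanylate-binding protein, had 9.59 and 2.38 FPKM in ASA+CUR libraries, against 23.4 and 24.6 FPKM in CUR libraries (log2 difference -2.06 ± 0.50 SE). Gbp2 was the exception, with 36.8 and 6.203 FPKM in ASA+CUR, against 36.1 and 72.9 FPKM in CUR: ASA+CUR replicate 0 lay just above CUR replicate 0 (log2 difference -1.67 ± 1.01 SE, limma adjusted p = 0.445). The ASA libraries split for several of these genes, Gbp2 having 175 and 20.1 FPKM in them.

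Ido1 and Cxcl9, which interferon-gamma induces, were among the 10 lowest genes without overlap. Ido1, which degrades tryptophan and restrains T cells, had 7.27 and 1.31 FPKM in ASA+CUR libraries, against 66.6 and 52.3 FPKM in CUR libraries (log2 difference -3.78 ± 0.86 SE, limma adjusted p = 0.2799). The chemokine gene Cxcl9, whose product draws activated T cells through Cxcr3, had 4.66 and 0.0977 FPKM in ASA+CUR, against 25.5 and 30.2 FPKM in CUR (log2 difference -3.53 ± 0.70 SE, limma adjusted p = 0.2799). Both genes were lower in both ASA+CUR libraries, with ASA+CUR replicate 1 far below replicate 0. Ido1 stood at 51.3 and 7.49 FPKM in ASA, 5.87 and 9.45 FPKM in Model and 0.295 and 1.41 FPKM in Control, so ASA replicate 0 resembled the CUR libraries. Apol9a and Apol10a, apolipoprotein L genes, were also among the 10 lowest genes without overlap. Apol9a had 2.54 and 0.792 FPKM with ASA+CUR, against 41.2 and 10.6 FPKM with CUR (log2 difference -3.14 ± 0.64 SE). Apol10a had 0.653 and 0.0233 FPKM with ASA+CUR, against 56.5 and 2.55 FPKM with CUR (log2 difference -3.46 ± 1.06 SE). Its level in CUR replicate 0 was far above that in CUR replicate 1. Unlike Ido1, Apol10a was higher in Control, at 88.8 and 57.7 FPKM, than in Model, at 16.7 and 8.94 FPKM.

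**Figure D2:**
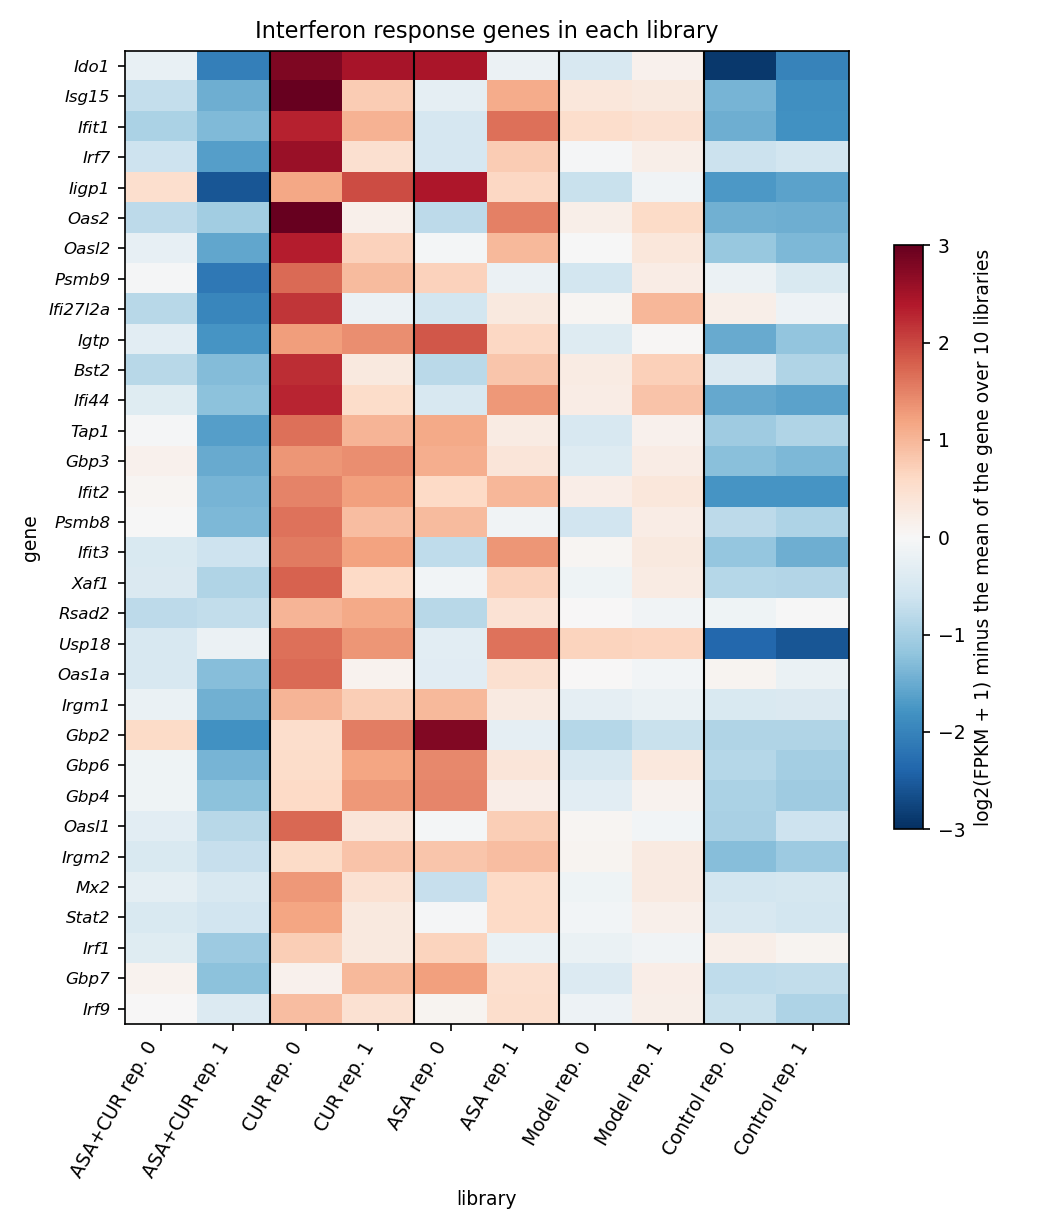
Each row is 1 of 32 tested interferon response genes and each column a library, with colour for log2(FPKM + 1) minus the gene's mean over the 10 libraries. ASA+CUR replicate 1 is blue for nearly all genes and close to white for Usp18. ASA+CUR replicate 0 is pale blue or near white for most genes with Gbp2 and Iigp1 in pale red. The CUR columns are red for nearly all genes, with CUR replicate 0 at its deepest for Isg15, Oas2 and Ido1.

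Genes of MHC class I presentation, a list added after values had been seen that shares Tap1, Psmb8 and Psmb9 with the interferon list, had a median log2 difference of -1.40. Of 30 tested members 28 were lower and 27 were lower without overlap, against 24.2% of all genes. The median was -1.85 against CUR replicate 0 alone and -0.96 against CUR replicate 1 alone. B2m, the light chain of every class I molecule, had 576 and 247 FPKM in ASA+CUR libraries, against 2494 and 1408 FPKM in CUR libraries (log2 difference -2.31 ± 0.48 SE, limma adjusted p = 0.2799). H2-K1, a classical heavy chain at chr17:33996012-34000619, had 379.8 and 223 FPKM in ASA+CUR, against 1699 and 884 FPKM in CUR (log2 difference -2.07 ± 0.35 SE, limma adjusted p = 0.2799). H2-D1, the other classical heavy chain, had 485 and 278 FPKM with ASA+CUR, against 1415 and 821 FPKM with CUR (log2 difference -1.55 ± 0.32 SE). The nonclassical gene H2-Q7 was lower still, at 15.2 and 2.69 FPKM in ASA+CUR, against 104 and 64.4 FPKM in CUR (log2 difference -3.42 ± 0.68 SE). The H2 genes are near copies of each other and the reads may have been split among them, so single H2 values are uncertain, which does not touch B2m. Tap1 and Tap2, which carry peptides into the endoplasmic reticulum, had 19.6 and 5.71 FPKM and 23.1 and 13.2 FPKM in ASA+CUR, against 64.9 and 41.7 FPKM and 46.7 and 35.2 FPKM in CUR. The immunoproteasome subunits Psmb8 and Psmb9 had 44.3 and 16.9 FPKM and 32.3 and 6.73 FPKM in ASA+CUR, against 140.4 and 85.4 FPKM and 109 and 65.2 FPKM in CUR. Nlrc5, the activator of class I genes, had 2.88 and 0.786 FPKM with ASA+CUR, against 7.94 and 6.49 FPKM with CUR (log2 difference -1.64 ± 0.47 SE). The chaperones Calr and Pdia3, which serve glycoproteins at large, overlapped between the groups, Calr at 414 and 486 FPKM in ASA+CUR libraries, against 517 and 428 FPKM in CUR libraries (log2 difference -0.07 ± 0.22 SE) and Pdia3 at 306 and 333 FPKM with ASA+CUR, against 292 and 314 FPKM with CUR (log2 difference 0.07 ± 0.19 SE).

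MHC class II genes followed with a median of -1.17, 11 of 12 tested members lower and 10 lower without overlap, against 24.2% of all genes. The median was -1.08 against CUR replicate 0 alone and -1.25 against CUR replicate 1 alone. Cd74, the invariant chain, had 572 and 304 FPKM in ASA+CUR libraries, against 1470.2 and 997 FPKM in CUR libraries (log2 difference -1.54 ± 0.46 SE, limma adjusted p = 0.309). H2-Ab1, a class II beta chain, had 182 and 91.4 FPKM in ASA+CUR, against 504 and 307 FPKM in CUR (log2 difference -1.60 ± 0.45 SE). The member that went the other way was Cd80, a costimulatory ligand on antigen-presenting cells, with 3.21 and 2.63 FPKM with ASA+CUR, against 1.51 and 1.099 FPKM with CUR (log2 difference 0.77 ± 0.21 SE). Among the 14 nucleic acid sensor genes, a list added after values had been seen, 7 were lower without overlap, against 24.2% of all genes. Their median was -0.23, and it was -0.34 against CUR replicate 0 alone and -0.29 against CUR replicate 1 alone. Zbp1, an interferon-induced sensor of Z-form nucleic acid, had 30.3 and 12.9 FPKM in ASA+CUR libraries, against 150.2 and 65.4 FPKM in CUR libraries (log2 difference -2.26 ± 0.54 SE, limma adjusted p = 0.2799). Sting1, the adaptor of cytosolic DNA sensing, had 44.4 and 75.3 FPKM in ASA+CUR, against 32.3 and 42.9 FPKM in CUR (log2 difference 0.62 ± 0.29 SE).

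T and NK cell markers stood beside these values. Of 15 tested members 14 were lower and 9 lower without overlap, against 24.2% of all genes. Their median was -0.54, and it was -0.95 against CUR replicate 0 alone and -0.37 against CUR replicate 1 alone. Their summed level was 53.3 and 61.9 FPKM in ASA+CUR, against 80.5 and 62.7 FPKM in CUR. Cd3e, a chain of the T cell receptor complex, had 1.01 and 0.955 FPKM in ASA+CUR libraries, against 3.72 and 2.91 FPKM in CUR libraries (log2 difference -1.12 ± 0.52 SE). Nkg7, a granule protein of cytotoxic cells, had 1.82 and 0.317 FPKM in ASA+CUR, against 4.93 and 2.95 FPKM in CUR (log2 difference -1.33 ± 0.43 SE). Tcf7, a factor of T cells that Wnt-active epithelium also expresses, was the member that went the other way, at 26.96 and 38.3 FPKM with ASA+CUR, against 18.3 and 22.3 FPKM with CUR. Macrophage and dendritic cell markers had a median of -0.09 over 19 members and a summed level of 729 and 880.4 FPKM in ASA+CUR, against 1036 and 758 FPKM in CUR. The median was -0.04 against CUR replicate 0 alone and 0.01 against CUR replicate 1 alone. Neutrophil markers had a median of 0.23 over 13 members, -0.01 without ASA+CUR replicate 1 and 0.42 against CUR replicate 0 alone and 0.02 against CUR replicate 1 alone. The part of these cells in the interferon and MHC differences was not tested, and in whole tissue fewer cells of a type and less RNA per cell cannot be told apart.

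Genes of differentiated colon epithelium were lower in ASA+CUR. All 15 tested goblet cell genes had negative differences, with a median of -1.17, and 13 were lower without overlap, against 24.2% of all genes. The median was -1.43 against CUR replicate 0 alone and -0.79 against CUR replicate 1 alone. Tff3, the trefoil peptide of mucus at chr17:31125306-31129611, had 944 and 999 FPKM in ASA+CUR libraries, against 3027 and 2317 FPKM in CUR libraries (log2 difference -1.45 ± 0.22 SE, limma adjusted p = 0.2799). Zg16, a lectin of the inner mucus layer, had 619 and 672 FPKM in ASA+CUR, against 3876 and 1838 FPKM in CUR (log2 difference -2.05 ± 0.39 SE, limma adjusted p = 0.2799). Clca1, a protease secreted with mucus, had 108 and 58.99 FPKM with ASA+CUR, against 339 and 380.3 FPKM with CUR (log2 difference -2.16 ± 0.62 SE). Atoh1, the factor that commits progenitors to the secretory lineage, had 7.12 and 3.97 FPKM in ASA+CUR libraries, against 14.4 and 15.4 FPKM in CUR libraries (log2 difference -1.32 ± 0.23 SE, limma adjusted p = 0.2799), with the CUR libraries level with Model (14.4 and 14.4 FPKM). Spdef, which matures goblet cells, had 12.5 and 13.4 FPKM in ASA+CUR, against 44.5 and 16.3 FPKM in CUR (log2 difference -1.01 ± 0.39 SE), and here CUR replicate 1 lay close to the ASA+CUR libraries. Elsewhere in the series Tff3 stood at 880.2 and 854 FPKM in ASA, 1600.5 and 1902 FPKM in Model and 3293 and 3452 FPKM in Control, and Zg16 at 609 and 395 FPKM in ASA, 1063 and 729.6 FPKM in Model and 4639.6 and 5628 FPKM in Control. The ASA+CUR libraries lay near the ASA libraries for Tff3, and below all Control libraries for both genes.

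Of 25 tested genes of absorptive colonocytes, 24 were lower and 16 lower without overlap, against 24.2% of all genes. Their median was -1.02, and it was -1.49 against CUR replicate 0 alone and -0.71 against CUR replicate 1 alone. Aqp8, a water channel of the surface epithelium, had 12.5 and 10.4 FPKM in ASA+CUR libraries, against 132 and 52.5 FPKM in CUR libraries (log2 difference -2.76 ± 0.59 SE, limma adjusted p = 0.2799). The carbonic anhydrase gene Car4 had 31.7 and 14.2 FPKM in ASA+CUR, against 163 and 158 FPKM in CUR (log2 difference -2.86 ± 0.68 SE, limma adjusted p = 0.2799). Slc26a3, the chloride and bicarbonate exchanger of the colon, had 31.4 and 6.797 FPKM with ASA+CUR, against 43.5 and 81.2 FPKM with CUR (log2 difference -1.93 ± 0.66 SE). For Car4 the CUR libraries were close to each other, whereas Guca2a, the precursor of guanylin, had 163 and 128 FPKM in ASA+CUR libraries, against 2017 and 283 FPKM in CUR libraries (log2 difference -2.38 ± 0.75 SE), and CUR replicate 0 lay far above the other 3 libraries. Krt20, a keratin of mature surface cells, showed the same order, at 314 and 307 FPKM in ASA+CUR, against 1149 and 316 FPKM in CUR. Fabp2, a fatty acid carrier, had 7.83 and 5.18 FPKM with ASA+CUR, against 412 and 16.5 FPKM with CUR (log2 difference -3.52 ± 1.26 SE). 1810065E05Rik, whose role is not given by the annotation used, had 10.5 and 7.26 FPKM with ASA+CUR, against 692 and 26.5 FPKM with CUR (log2 difference -3.83 ± 1.48 SE). These 2 were among the 10 lowest genes without overlap, and CUR replicate 0 was far above CUR replicate 1 in both. CUR replicate 0 was also low in Hoxd13, Hoxb13 and Wfdc2, and the part of position in the epithelial differences was not tested. CUR replicate 1 was like the ASA+CUR libraries in its Hoxd13 level. Its level of Hoxd12, a neighbour in the same cluster, was lower, at 11.1 FPKM against 19.1 and 22.05 FPKM in ASA+CUR. The likeness thus does not hold for all distal genes.

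Enteroendocrine genes had a median of -0.32 over 15 tested members, 0.15 against CUR replicate 0 alone and -0.45 against CUR replicate 1 alone. Gcg, which encodes the glucagon-like peptides and is the gene with the smallest unadjusted p on the lower side, had 3.78 and 3.95 FPKM in ASA+CUR libraries, against 12.4 and 10.9 FPKM in CUR libraries (log2 difference -1.38 ± 0.18 SE, limma adjusted p = 0.279). It stood at 4.48 and 3.58 FPKM in ASA, 12.8 and 9.75 FPKM in Model and 112 and 103 FPKM in Control, so the ASA+CUR libraries lay near the ASA libraries and the CUR libraries near the Model libraries. Chga, a granule protein of enteroendocrine cells, had 8.03 and 7.32 FPKM in ASA+CUR, against 9.42 and 21.4 FPKM in CUR (log2 difference -0.82 ± 0.50 SE), and Nts, the neurotensin gene, was higher at 4.28 and 4.002 FPKM with ASA+CUR, against 2.005 and 1.18 FPKM with CUR (log2 difference 1.01 ± 0.39 SE).

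**Figure D3:**
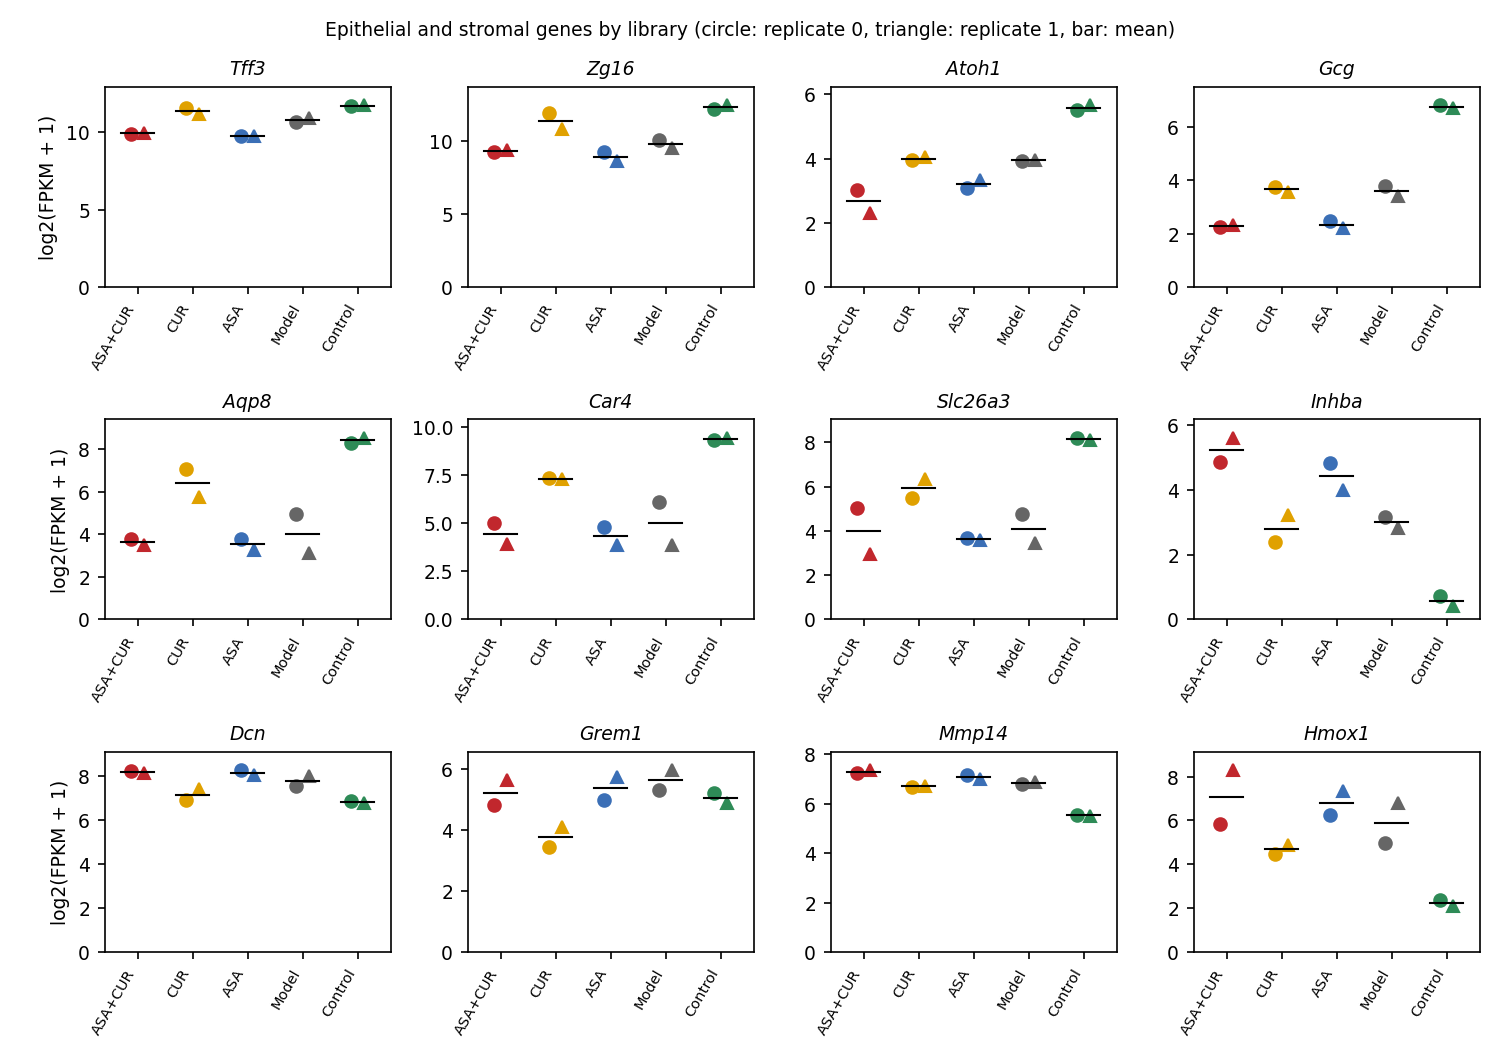
Levels of 12 epithelial and stromal genes, as log2(FPKM + 1), by group, with circles for replicate 0, triangles for replicate 1 and bars for the group mean. The 7 epithelial genes in the panels from Tff3 to Slc26a3 are lower in both ASA+CUR libraries than in both CUR libraries, and Inhba, Dcn, Grem1, Mmp14 and Hmox1 are higher.

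Genes of xenobiotic metabolism, which handle the 2 compounds of the diets among others, had a median of -0.78, with 29 of 35 tested members lower and 17 lower without overlap, against 24.2% of all genes. The median was -0.76 against CUR replicate 0 alone and -0.70 against CUR replicate 1 alone, and -0.47 without ASA+CUR replicate 1. Ces2c, a carboxylesterase, had 7.07 and 3.83 FPKM in ASA+CUR libraries, against 15.4 and 18.4 FPKM in CUR libraries (log2 difference -1.51 ± 0.28 SE, limma adjusted p = 0.2799). Ces2e, another of the family, had 15.1 and 8.805 FPKM in ASA+CUR, against 68.3 and 27.7 FPKM in CUR (log2 difference -1.83 ± 0.41 SE). Cyp4f14, a cytochrome P450 that oxidises fatty acids and leukotrienes, had 5.62 and 2.66 FPKM with ASA+CUR, against 36.7 and 19.1 FPKM with CUR (log2 difference -2.48 ± 0.49 SE, limma adjusted p = 0.2799). Cyp2c55, a cytochrome P450 of the colon, had 3.19 and 0.515 FPKM in ASA+CUR libraries, against 74.9 and 10.7 FPKM in CUR libraries (log2 difference -3.57 ± 0.95 SE), with CUR replicate 0 far above CUR replicate 1. Nr1i2, the nuclear receptor that induces such enzymes, had 13.97 and 11.3 FPKM in ASA+CUR, against 25.5 and 20.4 FPKM in CUR (log2 difference -0.81 ± 0.19 SE). Sult1b1, a sulfotransferase, had 22.04 and 16.5 FPKM with ASA+CUR, against 41.5 and 33.2 FPKM with CUR (log2 difference -0.92 ± 0.22 SE). Cyp1a1, the classical target of the aryl hydrocarbon receptor, had 0 and 0.0264 FPKM with ASA+CUR, against 0.0304 and 0 FPKM with CUR, too low to be tested. All of these genes were more abundant in both Control libraries than in both ASA+CUR libraries, with Cyp1a1 near 0 in each.

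Ribosomal protein genes, which serve translation, had a small negative median difference whose sign depended on the scaling. All 28 were lower, among them Rps27 at -3.76, a gene set apart below. The list median was -0.52, but 0.02 after quantile normalization. It was -0.76 against CUR replicate 0 alone and -0.25 against CUR replicate 1 alone. Of 28 oxidative phosphorylation genes 26 were lower, with a median of -0.44, -0.20 after quantile normalization. That median was -0.69 against CUR replicate 0 alone and -0.21 against CUR replicate 1 alone. Cox4i1, a subunit of cytochrome c oxidase, had 572 and 548 FPKM in ASA+CUR libraries, against 1126 and 779 FPKM in CUR libraries (log2 difference -0.74 ± 0.22 SE). The interferon list kept a median of -1.85 after quantile normalization, the goblet list -0.95 and the colonocyte list -0.88.

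**Figure D4:**
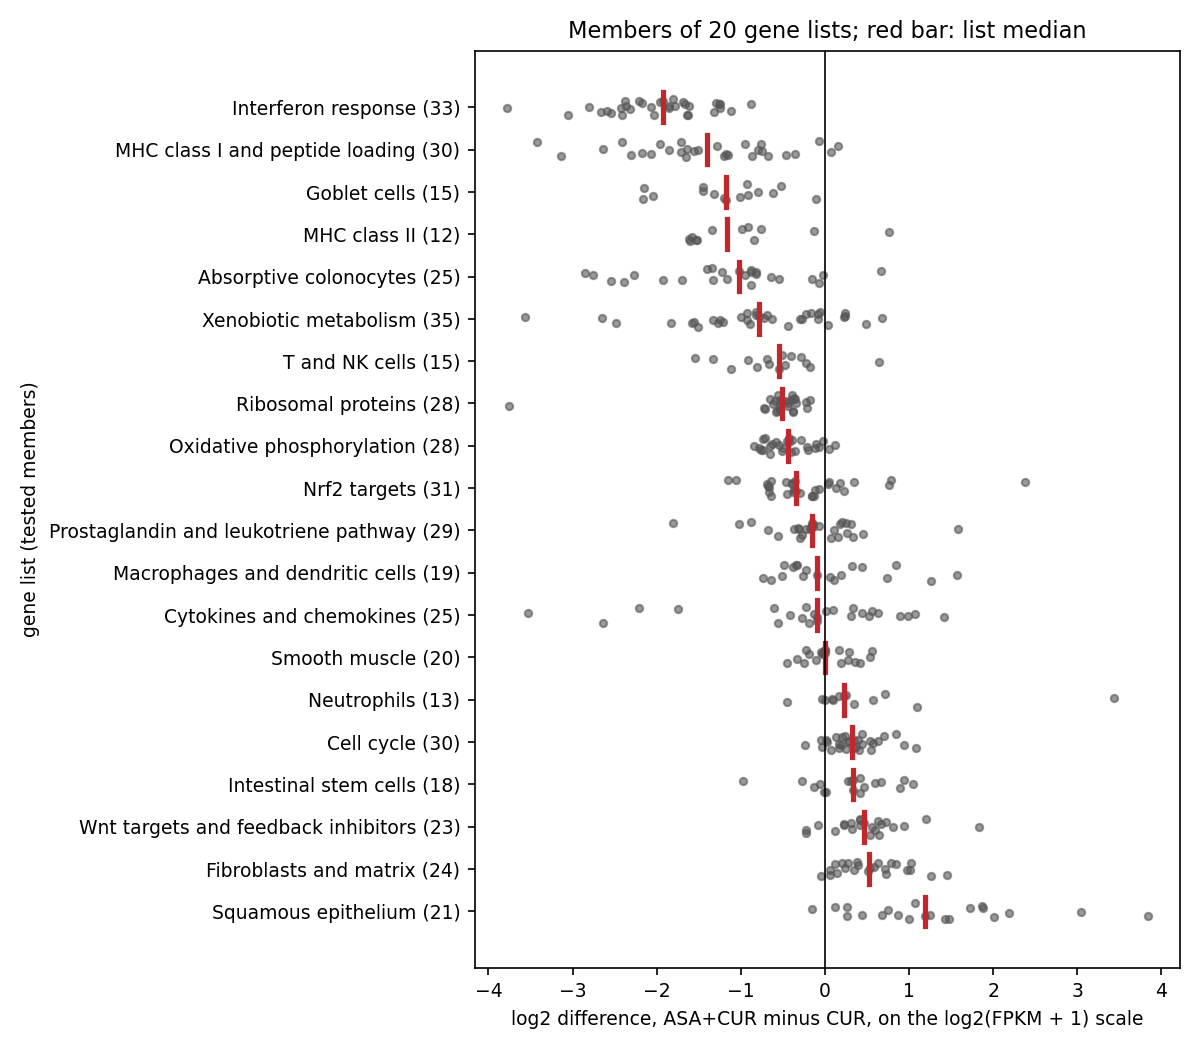
Log2 differences, ASA+CUR minus CUR, of the tested members of 20 gene lists, with 1 point per gene and a red bar at the list median. Interferon response genes lie to the left of 0 without exception, and fibroblast and squamous genes lie mostly to the right.

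Genes of fibroblasts and matrix were mostly higher in ASA+CUR. Of 24 tested fibroblast and matrix genes 23 were higher in ASA+CUR and 12 were higher without overlap, against 24.3% of all genes, with a median of 0.53, which was 0.63 against CUR replicate 0 alone and 0.50 against CUR replicate 1 alone. Dcn, the matrix proteoglycan decorin at chr10:97479500-97518163, had 298 and 275 FPKM in ASA+CUR libraries, against 119 and 165 FPKM in CUR libraries (log2 difference 1.03 ± 0.21 SE, limma adjusted p = 0.2799). Grem1, a secreted antagonist of bone morphogenetic proteins made by stromal cells, had 27.4 and 48.5 FPKM in ASA+CUR, against 9.92 and 16.2 FPKM in CUR (log2 difference 1.45 ± 0.38 SE). Its Model values were 38.5 and 61.5 FPKM, so the CUR libraries were the low ones. Lox, which crosslinks collagen, had 11.9 and 9.95 FPKM with ASA+CUR, against 3.12 and 4.96 FPKM with CUR (log2 difference 1.26 ± 0.35 SE). Col1a1, a chain of type I collagen, had 153 and 122 FPKM in ASA+CUR libraries, against 80.98 and 95.7 FPKM in CUR libraries (log2 difference 0.63 ± 0.27 SE). Mmp14, a membrane metalloproteinase that cleaves collagen, had 150.1 and 163 FPKM in ASA+CUR, against 102 and 104 FPKM in CUR (log2 difference 0.60 ± 0.13 SE, limma adjusted p = 0.2799), with replicates close together in both groups. Vim, an intermediate filament of stromal cells, had 365 and 470.1 FPKM with ASA+CUR, against 227 and 233 FPKM with CUR (log2 difference 0.85 ± 0.35 SE).

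Inhba, which encodes the subunit of activin A and lies at chr13:16004256-16031609, had 27.7 and 47.5 FPKM in ASA+CUR libraries, against 4.24 and 8.26 FPKM in CUR libraries (log2 difference 2.42 ± 0.39 SE, limma adjusted p = 0.2799), and stood at 27.3 and 14.98 FPKM in ASA, 7.89 and 6.097 FPKM in Model and 0.661 and 0.348 FPKM in Control. It was on both lists of genes named on the higher side, by p and by size. Among 8 tested activin and follistatin genes, a list added after values had been seen, 4 were higher without overlap, against 24.3% of all genes. Their median was 0.29, and it was 0.31 against CUR replicate 0 alone and 0.37 against CUR replicate 1 alone. The activin-binding protein gene Fstl3 had 1.29 and 2.103 FPKM in ASA+CUR, against 0.545 and 1.05 FPKM in CUR (log2 difference 0.58 ± 0.22 SE). Fst, the gene of follistatin, had 10.02 and 17.4 FPKM with ASA+CUR, against 9.29 and 5.73 FPKM with CUR (log2 difference 0.77 ± 0.39 SE). Hmox1, which breaks down haem and is an Nrf2 target, had 55.6 and 312 FPKM in ASA+CUR libraries, against 20.9 and 28.7 FPKM in CUR libraries (log2 difference 2.38 ± 0.83 SE, limma adjusted p = 0.328), with ASA+CUR replicate 1 far above replicate 0. The globin gene Hbb-bs was also highest in ASA+CUR replicate 1, at 24.7 and 198 FPKM in ASA+CUR, against 26.5 and 26.5 FPKM in CUR. Of 31 tested Nrf2 targets 9 were higher and 22 lower in ASA+CUR. Ppbp, a chemokine precursor of platelets, had 86.7 and 9.27 FPKM with ASA+CUR, against 3.96 and 3.03 FPKM with CUR (log2 difference 2.75 ± 1.24 SE), and here ASA+CUR replicate 0 was the high one. Cd36, a fatty acid and thrombospondin receptor, had 7.79 and 9.78 FPKM in ASA+CUR libraries, against 1.52 and 3.25 FPKM in CUR libraries (log2 difference 1.57 ± 0.34 SE).

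Other genes with small unadjusted p on the higher side were Moxd1, a gene related to dopamine beta-hydroxylase, at 4.83 and 3.21 FPKM in ASA+CUR libraries, against 0.793 and 0.617 FPKM in CUR libraries (log2 difference 1.54 ± 0.25 SE), and Map4k4, a kinase of stress signalling, at 43.5 and 53.5 FPKM in ASA+CUR, against 22.5 and 29.5 FPKM in CUR (log2 difference 0.88 ± 0.18 SE). Samd5 had 12.2 and 19.7 FPKM with ASA+CUR, against 3.40 and 5.55 FPKM with CUR (log2 difference 1.62 ± 0.31 SE). Serpinb8, an intracellular protease inhibitor, had 4.13 and 3.42 FPKM with ASA+CUR, against 0.975 and 1.43 FPKM with CUR (log2 difference 1.12 ± 0.20 SE). Krt80, an epithelial keratin, had 5.403 and 3.38 FPKM with ASA+CUR, against 0.838 and 1.32 FPKM with CUR (log2 difference 1.36 ± 0.28 SE). Xlr3a had 6.41 and 5.904 FPKM in ASA+CUR, against 1.11 and 0.337 FPKM in CUR (log2 difference 2.09 ± 0.31 SE), but it belongs to a family of near copies and its value is uncertain. The list of largest differences without overlap also held Klk15, a kallikrein protease, at 39.01 and 50.9 FPKM with ASA+CUR, against 0 and 13.4 FPKM with CUR (log2 difference 3.59 ± 1.67 SE), Fxyd4, a regulator of the sodium pump, at 32.6 and 50.02 FPKM with ASA+CUR, against 1.19 and 14.4 FPKM with CUR (log2 difference 2.83 ± 1.72 SE), and Hoxd12, a neighbour of Hoxd13 in its cluster, at 19.1 and 22.05 FPKM with ASA+CUR, against 0 and 11.1 FPKM with CUR (log2 difference 2.63 ± 1.24 SE). In these 3 genes CUR replicate 0 was at or near 0. On the lower side, Tmem171, a membrane protein gene, had 17.1 and 13.3 FPKM in ASA+CUR libraries, against 32.3 and 36.6 FPKM in CUR libraries (log2 difference -1.14 ± 0.17 SE). Pkdcc, a secreted kinase, had 8.57 and 6.15 FPKM with ASA+CUR, against 17.3 and 15.8 FPKM with CUR (log2 difference -1.08 ± 0.18 SE). Rsrp1, a nuclear arginine- and serine-rich protein, had 71.8 and 74.7 FPKM in ASA+CUR, against 141 and 135 FPKM in CUR (log2 difference -0.90 ± 0.14 SE). Prap1, an acidic secreted protein of the gut, had 0 and 0.455 FPKM with ASA+CUR, against 21.2 and 4.94 FPKM with CUR (log2 difference -3.25 ± 1.37 SE). The predicted gene Gm5431 had 0.409 and 0.238 FPKM in ASA+CUR, against 5.59 and 2.41 FPKM in CUR (log2 difference -1.84 ± 0.31 SE). For Rsrp1 the CUR libraries were level with Model at 133 and 131 FPKM, and the ASA libraries with ASA+CUR at 73.6 and 60.4 FPKM.

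Squamous epithelium genes were higher in ASA+CUR for 20 of 21 tested members, with 9 higher without overlap, against 24.3% of all genes, and a median of 1.19. Without ASA+CUR replicate 0 the median was 0.26. Krt14, a basal keratin, had 198 and 95.2 FPKM in ASA+CUR libraries, against 59.3 and 27.8 FPKM in CUR libraries (log2 difference 1.73 ± 0.74 SE). Krt13, a suprabasal keratin, had 227 and 21.6 FPKM in ASA+CUR, against 7.27 and 8.14 FPKM in CUR (log2 difference 3.05 ± 1.48 SE). The defining basal keratin Krt5 was near 0 in ASA+CUR replicate 1 and in both CUR libraries, as given above. Krt17, a keratin also induced in injured epithelium, had 16.6 and 14.5 FPKM with ASA+CUR, against 5.86 and 1.95 FPKM with CUR (log2 difference 1.88 ± 0.50 SE). The interferon response median was -2.55 without ASA+CUR replicate 0 and -1.36 without ASA+CUR replicate 1. In the same order the MHC class I median was -1.70 and -1.07, and the class II median -1.58 and -0.88. The goblet median was -1.06 and -1.06, and the fibroblast median 0.50 and 0.59. ASA+CUR replicate 1 still lay above both CUR libraries in Krt14 and Krt13. The part of squamous tissue in these differences was not tested.

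Wnt and proliferation genes leaned higher by small amounts. The cell cycle list had 27 of 30 members higher, and 19 were higher without overlap, against 24.3% of all genes. Its median was 0.32, and 0.18 without ASA+CUR replicate 1. It was 0.31 against CUR replicate 0 alone and 0.37 against CUR replicate 1 alone. Top2a, a topoisomerase of dividing cells, had 48.9 and 56.8 FPKM in ASA+CUR libraries, against 24.9 and 33.2 FPKM in CUR libraries (log2 difference 0.85 ± 0.37 SE). The proliferation marker Mki67 had 18.8 and 24.2 FPKM in ASA+CUR, against 16.8 and 17.7 FPKM in CUR (log2 difference 0.29 ± 0.35 SE, limma adjusted p = 0.6898). The Wnt list had 20 of 23 members higher and a median of 0.46, which was 0.68 against CUR replicate 0 alone and 0.14 against CUR replicate 1 alone. Axin2, a feedback inhibitor and reporter of Wnt signalling, had 95.6 and 111 FPKM with ASA+CUR, against 44.1 and 93.7 FPKM with CUR (log2 difference 0.67 ± 0.31 SE, limma adjusted p = 0.3697), and CUR replicate 1 lay just below the ASA+CUR libraries. Lgr5, the receptor that marks intestinal stem cells, had 11.4 and 20.3 FPKM in ASA+CUR libraries, against 7.77 and 7.22 FPKM in CUR libraries (log2 difference 0.94 ± 0.28 SE), with Model values of 12.3 and 11.9 FPKM.

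The cyclooxygenase genes, whose products aspirin acts on, overlapped between the groups. Ptgs1, the constitutive cyclooxygenase gene, had 14.5 and 13.2 FPKM in ASA+CUR libraries, against 18.9 and 13.9 FPKM in CUR libraries (log2 difference -0.22 ± 0.27 SE, limma adjusted p = 0.695). Ptgs2, the inducible one, had 19.01 and 43.4 FPKM in ASA+CUR, against 33.4 and 12.8 FPKM in CUR (log2 difference 0.45 ± 0.94 SE, limma adjusted p = 0.832). For Ptgs2 the highest library belonged to ASA+CUR and the lowest to CUR, with the other pair between them. Hpgd, which inactivates prostaglandins, had 39.9 and 15.8 FPKM with ASA+CUR, against 28.6 and 77.7 FPKM with CUR (log2 difference -0.88 ± 0.50 SE, limma adjusted p = 0.428), again with overlap. The prostaglandin and leukotriene list had a median of -0.15, with 5 of 29 members lower and 3 higher without overlap, each below the share of all genes (24.2% and 24.3%). That median was -0.24 against CUR replicate 0 alone and -0.01 against CUR replicate 1 alone. RNA levels do not measure the activity of the enzymes. The cytokine genes Il6 and Il1b overlapped, Il6 at 0.998 and 4.63 FPKM in ASA+CUR libraries, against 1.15 and 0.342 FPKM in CUR libraries (log2 difference 0.98 ± 0.81 SE, limma adjusted p = 0.559) and Il1b at 27.5 and 53.5 FPKM with ASA+CUR, against 25.5 and 37.3 FPKM with CUR (log2 difference 0.31 ± 0.41 SE, limma adjusted p = 0.7195). Tnf had 7.12 and 5.19 FPKM in ASA+CUR, against 9.604 and 7.49 FPKM in CUR (log2 difference -0.42 ± 0.28 SE, limma adjusted p = 0.480). Nos2, the inducible nitric oxide synthase, had 3.94 and 2.11 FPKM with ASA+CUR, against 9.14 and 4.89 FPKM with CUR (log2 difference -0.98 ± 0.44 SE, limma adjusted p = 0.363), and neither Tnf nor Nos2 overlapped between the groups. The Nrf2 list had a median of -0.35, which was -0.39 against CUR replicate 0 alone and -0.00387 against CUR replicate 1 alone. Its members Nqo1, a quinone reductase, and Gclc, of glutathione synthesis, had 16.8 and 9.08 FPKM and 22.7 and 25.1 FPKM in ASA+CUR, against 20.998 and 9.11 FPKM and 19.8 and 23.96 FPKM in CUR. Gstm3, a glutathione S-transferase, was the member with the smallest unadjusted p, at 4.43 and 2.68 FPKM in ASA+CUR libraries, against 10.3 and 7.702 FPKM in CUR libraries (log2 difference -1.15 ± 0.24 SE). The carboxylesterase gene Ces1g had 8.47 and 8.18 FPKM in ASA+CUR, against 6.62 and 7.18 FPKM in CUR (log2 difference 0.24 ± 0.17 SE). Ces2c and Ces2e, other carboxylesterase genes, went the other way, at log2 differences of -1.51 and -1.83. The sulfotransferase gene Sult1a1 had 10.3 and 3.02 FPKM with ASA+CUR, against 9.98 and 36.1 FPKM with CUR (log2 difference -1.58 ± 0.62 SE).

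A few genes with extreme values are multicopy or very short. Hba-a2, an alpha-globin gene, had 9.22 and 18.1 FPKM in ASA+CUR libraries, against 0.0365 and 0.0354 FPKM in CUR libraries (log2 difference 3.75 ± 0.33 SE, limma adjusted p = 0.0516), but its coding sequence of 429 bases differs from that of Hba-a1 at 1 base in the GENCODE annotation, and the sum of the pair was 24.8 and 191 FPKM in ASA+CUR, against 39.2 and 24.3 FPKM in CUR, which overlap. Snora64, a small nucleolar RNA gene shorter than a usual sequencing fragment, had 106 and 121 FPKM in ASA+CUR and was listed at 0 in both CUR libraries. Rps27 had 5.38 and 4.53 FPKM in ASA+CUR, against 85.8 and 73.5 FPKM in CUR, and within the Control group its values were 2.81 and 77.8 FPKM, so that this gene switched between levels inside an untreated group as well. These 3 values are therefore not read as differences between the diets.

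**Figure D5:**
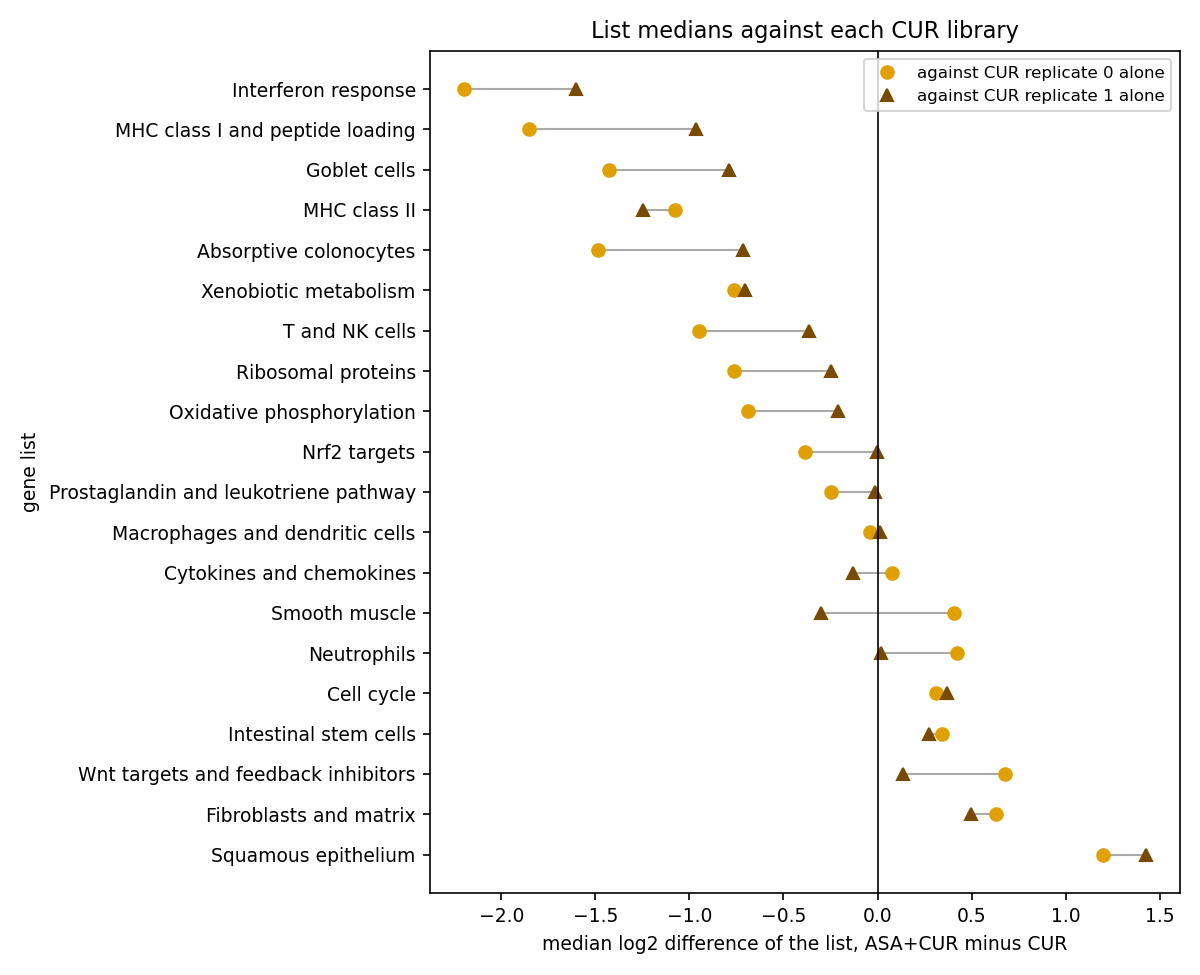
Median log2 difference of each of 20 gene lists, ASA+CUR minus CUR, with CUR replicate 0 alone (circles) or CUR replicate 1 alone (triangles) as the CUR group. The interferon, MHC, goblet and colonocyte medians are negative and the fibroblast and squamous medians positive against either library, while the smooth muscle, cytokine and macrophage medians change sign.

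Against either CUR library, the interferon response list had the lowest and the squamous epithelium list the highest median of the 20 lists plotted, at -2.20 and 1.20 against CUR replicate 0 and at -1.60 and 1.43 against CUR replicate 1. Smooth muscle genes had a median of 0.41 against CUR replicate 0 and -0.30 against CUR replicate 1, and cytokine and chemokine genes 0.08 and -0.13. The mast cell list had a median of -0.59, with 12 of 13 members lower and a summed level of 50.9 and 45.4 FPKM in ASA+CUR, against 300.2 and 96.2 FPKM in CUR. The median was -0.77 against CUR replicate 0 alone and -0.47 against CUR replicate 1 alone. Mcpt1, a mast cell protease of the mucosa, had 6.55 and 6.45 FPKM in ASA+CUR libraries, against 155 and 20.4 FPKM in CUR libraries (log2 difference -2.94 ± 1.75 SE). The B and plasma cell list had a median of -0.47, which was -0.13 against CUR replicate 0 alone and -0.84 against CUR replicate 1 alone. Of its 18 members 4 were lower without overlap, a share no higher than the 24.2% of all genes. The endothelial list had a median of 0.25, which was 0.13 against CUR replicate 0 alone and 0.31 against CUR replicate 1 alone. The fetal-like regenerative list had a median of 0.45, which was 0.08 against CUR replicate 0 alone and 0.66 against CUR replicate 1 alone. Within the regenerative list Anxa1, an annexin of injured epithelium, had 869 and 739 FPKM in ASA+CUR, against 612 and 358 FPKM in CUR (log2 difference 0.78 ± 0.31 SE). Ly6a, a surface protein of regenerating crypts that interferon also induces, had 585 and 604 FPKM with ASA+CUR, against 2110.4 and 609 FPKM with CUR (log2 difference -0.93 ± 0.51 SE).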

How the data were processed

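RNA from 10 mouse colon samples, 2 in each of 5 groups, was made into TruSeq libraries and sequenced on an Illumina NextSeq, per the labels' protocols. Bowtie2 2.1.0.0, TopHat2 2.0.9, bcl2fastq 2.17.1.14, Cuffdiff and the builds mm10 and GRCm38 are named in the submitters' processing notes; no annotation release is named there. The deposited table holds FPKM values of the authors per RefSeq transcript and library, 30073 rows. Values were summed per gene with names from RefSeq (GRCm38.p6; 29443 rows) and GENCODE M21 (179 rows), 451 rows keeping their transcript identifiers, which gave 23488 gene rows. FPKM are not counts, and steps in low values did not give whole reads (at most 14.8% of ratios lay within 0.05 of the commonest value on the log2 scale), so depth is unknown and no counting interval is given. Genes with at least 1 FPKM in at least 2 of 10 libraries (14061) were tested on the log2(FPKM + 1) scale with limma 3.58.1 (R 4.3.3; intensity trend), with 5 group means from all 10 libraries and the contrast ASA+CUR minus CUR, at a Benjamini-Hochberg adjusted p of 0.05. Log2 differences are on the log2(FPKM + 1) scale, which understates the change of low genes. An exact permutation test of 2 against 2 cannot go below p = 0.333 and was not used.

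The procedure was run on simulated data in which the spread of each gene was capped at the median spread. That run does not show how the procedure performs on genes that vary more. The members and the 52 gene lists, 4 of them added after values were seen, were chosen with earlier results of these data known; 11 list entries had no match and are not analysed here. Genes were named by a fixed rule: up to 10 in each direction by smallest unadjusted p and by size among genes without overlap and at least 10 FPKM in the higher group, up to 4 per list, and a set of drug target and readout genes. Other named genes were chosen for their role after their values were seen. A gene that the rule named is not reported here. Lists were described and not tested. A total of 15 alternative settings were run.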

Additional observations from a re-analysis of the deposited data

How the results depend on the processing

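The count of genes past the adjusted threshold was 0 with a pseudocount of 5, with no filter on low values, with a filter of 5 FPKM, with upper-quartile scaling, with quantile normalization, without the Control libraries and with transcripts in place of genes. It was 1 with a pseudocount of 0.1 (Hba-a2), 1 with no intensity trend (Hba-a2) and 1 when the ASA+CUR and CUR libraries alone were fitted (Snora64). Over the fits that leave out 1 of the 4 libraries it ranged between 0 and 1956, the highest without CUR replicate 1; the cause was not tested. With the replicate number of the titles as a block it was 0, with 1872 genes at an unadjusted p below 0.05 against 1944 without the block. The deviations of same-numbered ASA+CUR and CUR libraries correlated at -0.04 across genes. Over all pairs of groups this correlation ranged between -0.21 (CUR and ASA) and 0.33 (ASA+CUR and ASA). Whether same-numbered samples share more than a number cannot be told from these values. Of 123 named genes, 115 kept their sign under every alternative run for them. The log2 difference of Calr was 0.33 and that of Epcam 0.0855 after quantile normalization. Over the fits that leave out 1 library it ranged between -0.21 and 0.0660 for Calr, -0.00338 and 0.26 for Gclc, -0.70 and 3.15 for Hoxb13, -0.16 and 0.78 for Il1b, -0.71 and 0.41 for Nqo1, -0.21 and 1.11 for Ptgs2 and -0.32 and 4.77 for Wfdc2. Many of the named genes were picked for small p or large differences in these same libraries. Their number past a threshold is therefore not given. Of 728 list medians recomputed, 91 moved by more than the spread between replicates. With 2 libraries a group and unknown depth, differences of low genes could not be separated from counting error.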
